A study of Mus musculus with 46 samples.

Results

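The retrotransposon Gag-like genes examined here were the 8 whose symbols are Rtl3, Rtl5, Rtl6, Rtl8a, Rtl8b, Rtl8c, Rtl9 and Rtl10. They were taken by symbol from count files that list 57010 genes, and all 8 were found. The family was chosen by measured values of these libraries, the fall of Rtl3 in heart and of Rtl9 in striatum when thyroid hormone (TH) was given. Treatment values of those genes in those tissues are therefore a description with no test. All mice were adults kept under standard conditions, and were either wild-type (WT) or homozygous for the allele HrDR5, which lacks 1 nucleotide at the hairless gene Hr (genotype HrDR5/DR5, called mutant). Within each genotype, mice were untreated, or were made hypothyroid with propylthiouracil in low-iodine food for 15 days (PTU), or received PTU and then TH for 24 hours (PTU+TH). Both tissues, heart and striatum, were taken for all 6 combinations, which gives 12 groups and 46 libraries of bulk RNA. Each group held 4 libraries, except untreated mutant hearts and PTU mutant hearts with 3 each. For replicate 1 of the mutant PTU+TH hearts the label states 15 days and leaves out the 24 hours, and this library stayed in its group. The labels do not say whether replicates came from separate animals, so p-values measure only the spread between libraries.

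Genes of this family descend from the Gag region of a sushi-ichi retrotransposon that lost the ability to move, and they are now single genes of the mammalian genome. Their best known relatives, Peg10 and Rtl1, are imprinted genes needed in the placenta. In mice, Rtl5, Rtl6 and Rtl9 proteins have been described in microglia as parts of the innate response to microbial material, and loss of Rtl8a and Rtl8b affects behaviour and body weight. Human RTL8 protein associates with the protein quality factor UBQLN2, and human RTL10 carries a BH3-like motif and can induce cell death, whereas little is known of Rtl3. TH acts through nuclear receptors that bind pairs of the half-site AGGTCA, and Hr, which encodes a corepressor, is one of its targets.

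Of the 8 genes, 6 lie on the X chromosome in the reference annotation (GENCODE M21, build GRCm38), with Rtl3, Rtl5, Rtl8a and Rtl8b on the minus strand and Rtl8c and Rtl9 on the plus strand. Rtl6 lies on chromosome 15, minus strand, and Rtl10 on chromosome 16, plus strand. The 3 Rtl8 genes are neighbours, with Etd on the outer side of Rtl8c and 4930502E18Rik on the outer side of Rtl8b. The nearest coding genes are Gm5127 and Lpar4 for Rtl3, 8030474K03Rik and Pin4 for Rtl5, Shisal1 and Prr5 for Rtl6, Ammecr1 and Chrdl1 for Rtl9, and Txnrd2 and Tbx1 for Rtl10. Rtl10 shares 146 exon bases with Gnb1l on the same strand, so reads there could belong to either gene. Rtl5 lies within Nhsl2 and Rtl8c within Gm14597 on the opposite strand, with 0 exon bases shared.

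The coding sequences of Rtl8a and Rtl8b, 342 bases each with the stop codon, were identical. Rtl8c, with 339 coding bases, matched them at 279 of 345 aligned columns, or 80.87%. A stretch of 120 coding bases is shown for the 3 genes because it bears on which reads can be given to which gene, and capitals mark bases of Rtl8c that are not those of Rtl8a. Rtl8a is read at chrX:53643364-53643483 and Rtl8b at chrX:53670041-53670160, both on the minus strand, and Rtl8c at chrX:53608181-53608300 on the plus strand (GRCm38).
Rtl8a coding: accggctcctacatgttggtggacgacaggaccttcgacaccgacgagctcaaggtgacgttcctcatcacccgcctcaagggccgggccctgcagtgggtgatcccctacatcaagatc
Rtl8b coding: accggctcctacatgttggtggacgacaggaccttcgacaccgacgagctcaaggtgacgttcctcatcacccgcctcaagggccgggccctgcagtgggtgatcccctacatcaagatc
Rtl8c coding: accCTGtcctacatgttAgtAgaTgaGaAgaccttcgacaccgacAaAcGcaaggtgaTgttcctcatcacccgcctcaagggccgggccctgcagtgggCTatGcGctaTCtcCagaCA
Across the whole exons, 870 of the 1121 stretches of 75 bases in Rtl8a, 77.61%, also occur in Rtl8b, where they are 75.13% of 1158. None of the 327 such stretches of Rtl8c, and none in Rtl3, Rtl5, Rtl6, Rtl9 or Rtl10, occurs in another of the 8 genes. At 50 bases, 6 of 352 stretches of Rtl8c (1.71%) occur in Rtl8a and Rtl8b, and the read length is not stated in the sources at hand. The split of counts between Rtl8a and Rtl8b is therefore uncertain, since it rests on bases outside the coding sequence. Within the 401 exon bases that GENCODE gives Rtl8c, few or no reads should fit both Rtl8c and its neighbours. RefSeq gives Rtl8c a span of 1214 bases, and its further bases were not compared, so sharing there is not known.

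Promoters, from 250 bases before to 50 after the annotated start, were matched for 7 of the 8 genes in RefSeq (GRCm38.p6). The half-site AGGTCA, searched on both strands, is in 1 of the 7, Rtl9, and in 5340 of all 32851 promoters (16.3%). The spaced pair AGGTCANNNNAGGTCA, which contains the half-site, is in 5 of all promoters (0.0152%) and in 0 of the 7. The promoters of Rtl3 (chrX:106840490-106840789, minus strand) and Rtl9 (chrX:143099344-143099643, plus strand) are shown because these genes varied with treatment, with the half-site match, on the reverse strand at position 148 from the 5′ end, in capitals.
Rtl3 promoter: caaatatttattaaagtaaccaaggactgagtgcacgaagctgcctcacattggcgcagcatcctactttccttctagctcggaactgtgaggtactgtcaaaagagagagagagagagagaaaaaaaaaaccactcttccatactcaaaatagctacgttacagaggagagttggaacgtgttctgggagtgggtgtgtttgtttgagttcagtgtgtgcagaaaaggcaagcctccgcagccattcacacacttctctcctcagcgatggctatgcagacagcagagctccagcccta
Rtl9 promoter: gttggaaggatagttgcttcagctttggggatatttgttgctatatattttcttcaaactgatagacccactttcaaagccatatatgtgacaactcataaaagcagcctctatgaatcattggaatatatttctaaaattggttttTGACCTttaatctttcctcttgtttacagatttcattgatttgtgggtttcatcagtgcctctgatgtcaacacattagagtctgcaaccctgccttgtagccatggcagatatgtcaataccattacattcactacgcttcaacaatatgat
The match describes these letters only, and no binding was measured.

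The end of the Rtl8 promoters is shown because Rtl8a and Rtl8b varied together between libraries. Capitals mark runs of 12 or more bases that the window shares with another Rtl8 promoter, and the stretches of 120 bases are chrX:53643714-53643833 and chrX:53670388-53670507 on the minus strand and chrX:53607852-53607971 on the plus strand.
Rtl8a promoter end: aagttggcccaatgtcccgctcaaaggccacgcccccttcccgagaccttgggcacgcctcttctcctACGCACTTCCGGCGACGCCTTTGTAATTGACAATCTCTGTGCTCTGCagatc
Rtl8b promoter end: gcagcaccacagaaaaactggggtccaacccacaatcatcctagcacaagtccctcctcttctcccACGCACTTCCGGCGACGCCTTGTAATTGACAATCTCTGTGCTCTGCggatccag
Rtl8c promoter end: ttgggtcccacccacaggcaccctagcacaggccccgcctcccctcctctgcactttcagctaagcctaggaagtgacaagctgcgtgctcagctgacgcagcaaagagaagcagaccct
The longest run common to the Rtl8a and Rtl8b promoters was 27 bases, in the part shown. Rtl8b and Rtl8c shared a run of 44 bases further upstream, and Rtl8a and Rtl8c shared no run of 12 or more.

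Gene counts came to 3.27 M in 1 heart library, mutant untreated replicate 2, to between 8.235 and 19.53 M in the other hearts, and to between 9.469 and 13.66 M in striata. Between 27.7 and 48.0% of heart reads and between 20.7 and 29.3% of striatal reads were given to no gene. Levels in CPM are counts scaled to a common library size within each tissue, except where a joint scale is named. Heart and striatal values in CPM are therefore not on the same scale. Summed cardiomyocyte markers ran from 22764 to 37340 CPM in hearts and from 211 to 438 in striata. Summed projection neuron markers ran from 9.06 to 20.4 CPM in hearts and from 4824 to 8513 in striata. Hr stood at 15.9 ± 0.426 CPM in untreated, 2.19 ± 1.03 in PTU and 75.7 ± 5.66 in PTU+TH WT hearts (SD, n = 4 each), and at 16.2 ± 3.15 in PTU+TH mutant hearts (n = 4). Hr in untreated mutant hearts ranged from 3.13 to 18.8 CPM.

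Rtl3 was most abundant in PTU hearts of WT mice and stood near the limit of detection in the other WT hearts. Untreated WT hearts had 3, 7, 4 and 4 counts in replicates 1 to 4, which is 0.282, 0.719, 0.226 and 0.279 CPM. PTU WT hearts had 127, 86, 105 and 46 counts, or 5.84, 5.62, 5.96 and 3.52 CPM. PTU+TH WT hearts had 0, 4, 7 and 2 counts, or 0, 0.287, 0.432 and 0.151 CPM. Every PTU heart of WT mice thus lay above every untreated and every PTU+TH heart of WT mice, and these last groups overlapped. Mean levels were 0.376 ± 0.230 CPM in untreated, 5.24 ± 1.15 in PTU and 0.218 ± 0.185 in PTU+TH hearts of this genotype (SD, 4 libraries in each). As a description, the fitted log2 difference was 3.86 ± 0.475 (SE) between PTU and untreated WT hearts and -4.43 ± 0.496 between PTU+TH and PTU. The PTU libraries enter both differences.

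In mutant hearts Rtl3 followed the same order over a smaller range. Untreated mutant hearts had 5, 0 and 5 counts, or 0.533, 0 and 0.520 CPM, and the 0 is in the library with the lowest total. PTU mutant hearts had 5, 15 and 23 counts, or 0.421, 1.74 and 2.26 CPM. PTU+TH mutant hearts had 2, 2, 3 and 5 counts, or 0.191, 0.160, 0.231 and 0.404 CPM. All 3 PTU hearts lay above the 4 PTU+TH hearts, by 0.421 against 0.404 at the nearest, and replicate 1 of PTU lay within the untreated range. Mean levels were 0.351 ± 0.304 CPM in the 3 untreated, 1.47 ± 0.946 in the 3 PTU and 0.246 ± 0.109 in the 4 PTU+TH hearts (SD). The fitted log2 difference was 1.66 ± 0.657 between PTU and untreated mutant hearts, or 1.44 without the library of low total, and -2.49 ± 0.591 between PTU+TH and PTU.

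**Figure D1:**
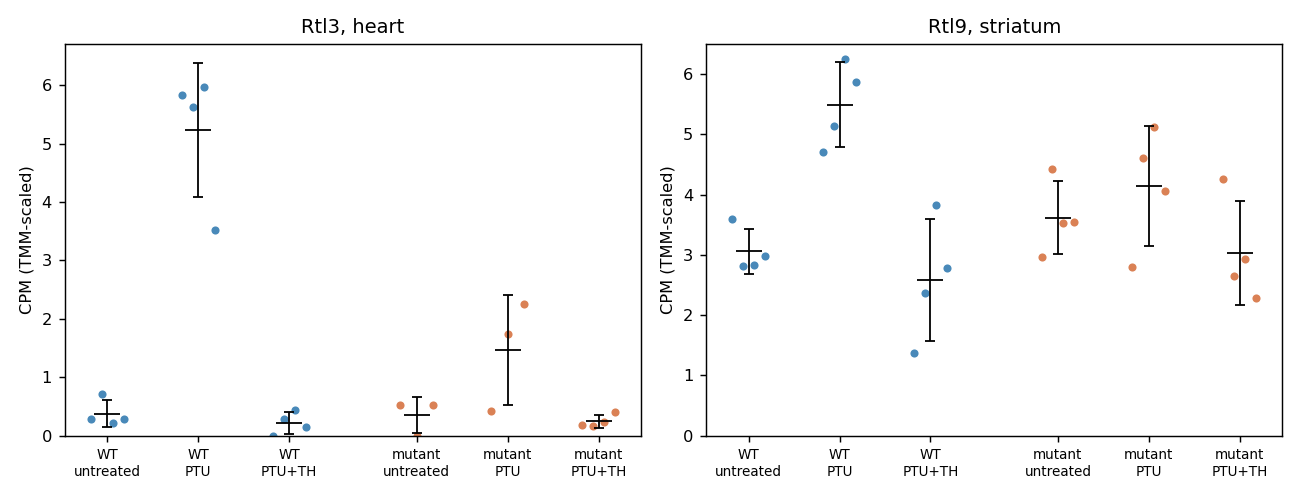
Level of Rtl3 in each heart library (left) and of Rtl9 in each striatum library (right), in CPM after TMM scaling, by genotype and treatment; points are libraries, horizontal lines group means and bars 1 SD. The 4 PTU hearts of WT mice lie between 3.52 and 5.96 CPM for Rtl3, above the 3 PTU mutant hearts between 0.421 and 2.26 CPM, and the 4 PTU striata of WT mice lie between 4.70 and 6.25 CPM for Rtl9.

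Set against each other, the lowest PTU WT heart, at 3.52 CPM of Rtl3, stood above the highest PTU mutant heart, at 2.26 CPM, with a fitted log2 difference of -1.86 ± 0.449 (mutant minus WT). Leaving out PTU mutant replicate 3 moved it to -2.35, and leaving out replicate 1 to -1.38. The mutant-minus-WT difference in response was -2.20 ± 0.883 for PTU and 1.94 ± 0.858 for TH, again as a description. Untreated mutant and untreated WT hearts differed by 0.35 ± 0.724 on the log2 scale, from 18 counts in 4 WT and 10 counts in 3 mutant libraries. No test is given for it either, since Rtl3 passed the low-count filter through the PTU hearts. In order of level, PTU WT hearts came first and PTU mutant hearts next, of which the lowest lay within the range of both untreated groups and of the PTU+TH WT hearts, and the other 4 groups overlapped each other.

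TH is known to switch myosin heavy chain genes in the rodent heart. In the same libraries, Myh6 separated the PTU groups of the genotypes, while Myh7 overlapped between them. Myh6, the chain of the euthyroid adult, stood at 21.2, 69.8, 102 and 488 CPM in PTU WT hearts and at 13714, 4875 and 7473 in PTU mutant hearts. Myh7, the chain of the hypothyroid heart, stood at 7457, 21949, 24788 and 23448 CPM and at 7268, 8313 and 16282. The PTU mutant heart lowest in Rtl3, replicate 1, was also the lowest of the 3 in Myh7 and the highest in Myh6. The PTU WT heart lowest in Rtl3, replicate 4, was the highest in Myh6 at 488 CPM but stood at 23448 in Myh7. The lowest Myh7 there, 7457 CPM, was that of replicate 1, whose Rtl3 was 5.84 CPM. Hr, a target of TH, stood at 2.19 ± 1.03 CPM in PTU WT hearts and at 2.51 ± 1.02 in PTU mutant hearts (SD). Whether the depth of hypothyroidism of these mice has a part in the Rtl3 levels was not tested.

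Of 19 lists of cell type markers, 0 had summed levels in PTU WT hearts above those of every untreated and every PTU+TH WT heart, as Rtl3 did, and 1 lay below both. That list, 4 markers of cortical excitatory neurons, all above 0, summed to between 2.88 and 5.62 CPM in PTU, 6.30 and 19.0 in untreated and 6.90 and 18.8 in PTU+TH WT hearts, and its part in the Rtl3 levels was not tested. The 5 cardiomyocyte markers summed to between 29525 and 34695 CPM in PTU, 26681 and 37340 in untreated and 25232 and 29840 in PTU+TH WT hearts, with all 5 above 0 in each group. All 4 macrophage markers were above 0, and they summed to between 51.1 and 71.7 CPM in untreated, 30.8 and 36.5 in PTU and 25.2 and 42.5 in PTU+TH WT hearts. The 4 blood cell markers, also all above 0, summed to between 983 and 2444, 185 and 808, and 446 and 1646 CPM in the same groups. Macrophage markers were thus higher in every untreated WT heart than in any PTU or PTU+TH WT heart. Blood markers overlapped between untreated and PTU+TH WT hearts. Whether cell composition has a part in the Rtl3 levels was not tested. In bulk RNA, fewer cells of a type and less RNA per cell cannot be told apart.

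The 5 genes whose level followed that of Rtl3 most closely over the 22 heart libraries, by Pearson's r of log2 CPM, were Gm31520 (r = 0.944), Lpar3 (0.930), Ntn4 (0.928), Rtn4 (0.889) and Tmed4 (0.889). All had their highest group mean in PTU WT hearts, which is largely built in, since they were picked for likeness to Rtl3. Lpar3, which encodes a lysophosphatidic acid receptor, had means of 0.297, 1.86 and 0.176 CPM in untreated, PTU and PTU+TH WT hearts and 0.177, 0.769 and 0.0835 CPM in the mutant groups. Ntn4, which encodes the secreted protein netrin-4, had means of 13.6, 27.3 and 11.8 CPM, and 12.3, 16.8 and 11.6 CPM. These values share libraries, treatments and depth, and a ranking by Spearman's rho held 2 of the same 5 genes.

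In striatum Rtl3 was all but absent, with 16 counts over 24 libraries, at most 3 in a library and 0 in 11. It did not pass the low-count filter there, and no effect of treatment or genotype was detectable at this depth.

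Rtl9, little detected in heart, had its highest striatal levels in hypothyroid WT mice. Untreated WT striata had 40, 32, 29 and 37 counts, or 3.60, 2.82, 2.83 and 2.98 CPM. PTU WT striata had 51, 68, 73 and 59 counts, or 4.70, 5.13, 6.25 and 5.87 CPM. PTU+TH WT striata had 15, 24, 41 and 33 counts, or 1.37, 2.36, 3.82 and 2.79 CPM. The PTU libraries lay above all untreated and all PTU+TH libraries of WT mice, and the latter groups overlapped. The means were 3.06 ± 0.370, 5.49 ± 0.703 and 2.58 ± 1.01 CPM (SD, n = 4 each), and the fitted log2 difference was 0.84 ± 0.239 (SE) between PTU and untreated and -1.08 ± 0.243 between PTU+TH and PTU. Both differences use the PTU libraries.

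Mutant striata overlapped across all 3 treatments for Rtl9. The untreated ones had 31, 41, 45 and 41 counts, or 2.97, 4.43, 3.52 and 3.54 CPM. With PTU they had 31, 64, 48 and 46 counts, or 2.79, 4.61, 5.11 and 4.05 CPM, and with PTU+TH 52, 35, 33 and 27 counts, or 4.25, 2.65, 2.93 and 2.28 CPM. Means were 3.61 ± 0.604, 4.14 ± 0.999 and 3.03 ± 0.860 CPM (SD, n = 4 each). The fitted log2 difference was 0.20 ± 0.240 for PTU against untreated and -0.45 ± 0.241 for PTU+TH against PTU. PTU mutant striata overlapped PTU WT striata, with a difference of -0.41 ± 0.233, and the mutant-minus-WT difference in response was -0.64 ± 0.338 for PTU and 0.63 ± 0.342 for TH. Untreated mutant and untreated WT striata could be tested and differed by 0.24 ± 0.245, which did not pass (adjusted p = 1.00). From the highest mean down, the order was WT PTU, mutant PTU, mutant untreated, WT untreated, mutant PTU+TH and WT PTU+TH, and each group overlapped the next in range.

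Microglial and macrophage markers, set beside Rtl9 because its protein has been described in microglia, overlapped across these groups. The 4 markers, all above 0, summed to between 158 and 193 CPM in untreated, 165 and 201 in PTU and 155 and 193 in PTU+TH WT striata. The genes closest to Rtl9 over the 24 striatum libraries were Abcb4 (r = 0.834), Zkscan16 (0.826), Col6a2 (0.824), Slc4a11 (0.823) and Zfp46 (0.820). All 5 had their highest group mean in PTU WT striata, for example 72.5 CPM of Zkscan16 against 42.0 untreated and 39.3 with PTU+TH. Since these genes were picked for likeness to Rtl9, that shared order is largely built in. Ranked by Spearman's rho, 0 of these genes were among the first 5.

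In heart Rtl9 had 48 counts over 22 libraries, between 0 and 9 in each and 0 in 6, and did not pass the filter. Group means ran from 0.0355 to 0.253 CPM. Rtl9 and Rtl3 thus each showed their treatment pattern in a tissue where the other was near 0, and the patterns cannot be compared within 1 tissue.

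The other members showed no change with treatment or genotype that passed the test. In heart, Rtl5, Rtl6, Rtl8a, Rtl8b and Rtl8c passed the filter besides Rtl3, which made 55 tests over 11 comparisons. The quasi-likelihood test in edgeR called 0 of the 55, with 2 at an unadjusted p below 0.05, and DESeq2 called 0, with 0 at an unadjusted p below 0.05. The lowest adjusted p was 0.126. Over all 14156 genes tested in heart, the share called was 4.90% for PTU against untreated, 11.4% for PTU+TH against PTU and 2.03% for PTU+TH against untreated in WT mice, and 13.8%, 0.410% and 22.0% in mutant mice. For mutant against WT it was 0.0% untreated (823 genes at an unadjusted p below 0.05, and 3 called by DESeq2), 2.20% with PTU and 0.0141% with PTU+TH, and for the genotype difference in response 0.579% for PTU and 0.290% for TH. These heart shares moved when 1 library was left out. Calls for PTU against untreated then ran from 483 to 1069 genes in WT and from 85 to 3163 in mutant mice. Calls for PTU+TH against untreated ran from 121 to 302 and from 1173 to 3902.

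In striatum 7 members passed the filter, all but Rtl3, which gave 67 tests besides the treatment values of Rtl9. The 67 include tests of Rtl10, which had at most 13 counts in a library and at most 0.616 CPM in untreated WT striata. Rtl10 thus passed through libraries of other groups, and no weight is put on its tests. The test in edgeR called 0 of the 67, with 3 at an unadjusted p below 0.05, and DESeq2 also called 0, with 3 at that level. The lowest adjusted p was 0.255. Over all 15670 genes tested in striatum the share called was 0.459% for PTU+TH against PTU in WT mice and 0.0% in each of the other 10 comparisons, where between 235 and 1578 genes had an unadjusted p below 0.05 and DESeq2 called between 0 and 33. The members' counts of 0 are therefore close to this background.

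On the scale of each tissue, Rtl5 stood at between 0.922 and 3.02 CPM in hearts and between 24.8 and 54.2 in striata. Rtl6 stood at between 2.97 and 9.36 CPM in hearts and between 36.7 and 61.2 in striata. Group means of Rtl5 ran from 1.36 to 2.20 CPM in heart and from 33.1 to 43.6 in striatum, and those of Rtl6 from 4.60 to 6.78 and from 43.6 to 53.8. These ranges are narrow beside the spread within groups, as the plot of levels by group shows. The smallest p among the 67 striatal tests was that of Rtl6 in WT striata, at 49.8, 55.2, 49.1 and 61.2 CPM with PTU+TH and 36.7, 48.6, 40.5 and 48.5 CPM with PTU. The 4 PTU+TH libraries lay above the 4 PTU libraries, with a log2 difference of 0.30 ± 0.117 (n = 4 each), but the difference did not pass the adjusted threshold in edgeR (adjusted p = 0.255). In mutant striata the groups overlapped, from 44.2 to 54.2 CPM with PTU+TH and from 45.2 to 55.8 with PTU. For Rtl5 the lowest p was in mutant hearts, where PTU+TH was below untreated by a log2 difference of -0.75 ± 0.352 (adjusted p = 0.126 in edgeR), at 1.36 ± 0.310 (SD, n = 4) against 2.17 ± 0.758 CPM (n = 3).

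**Figure D2:**
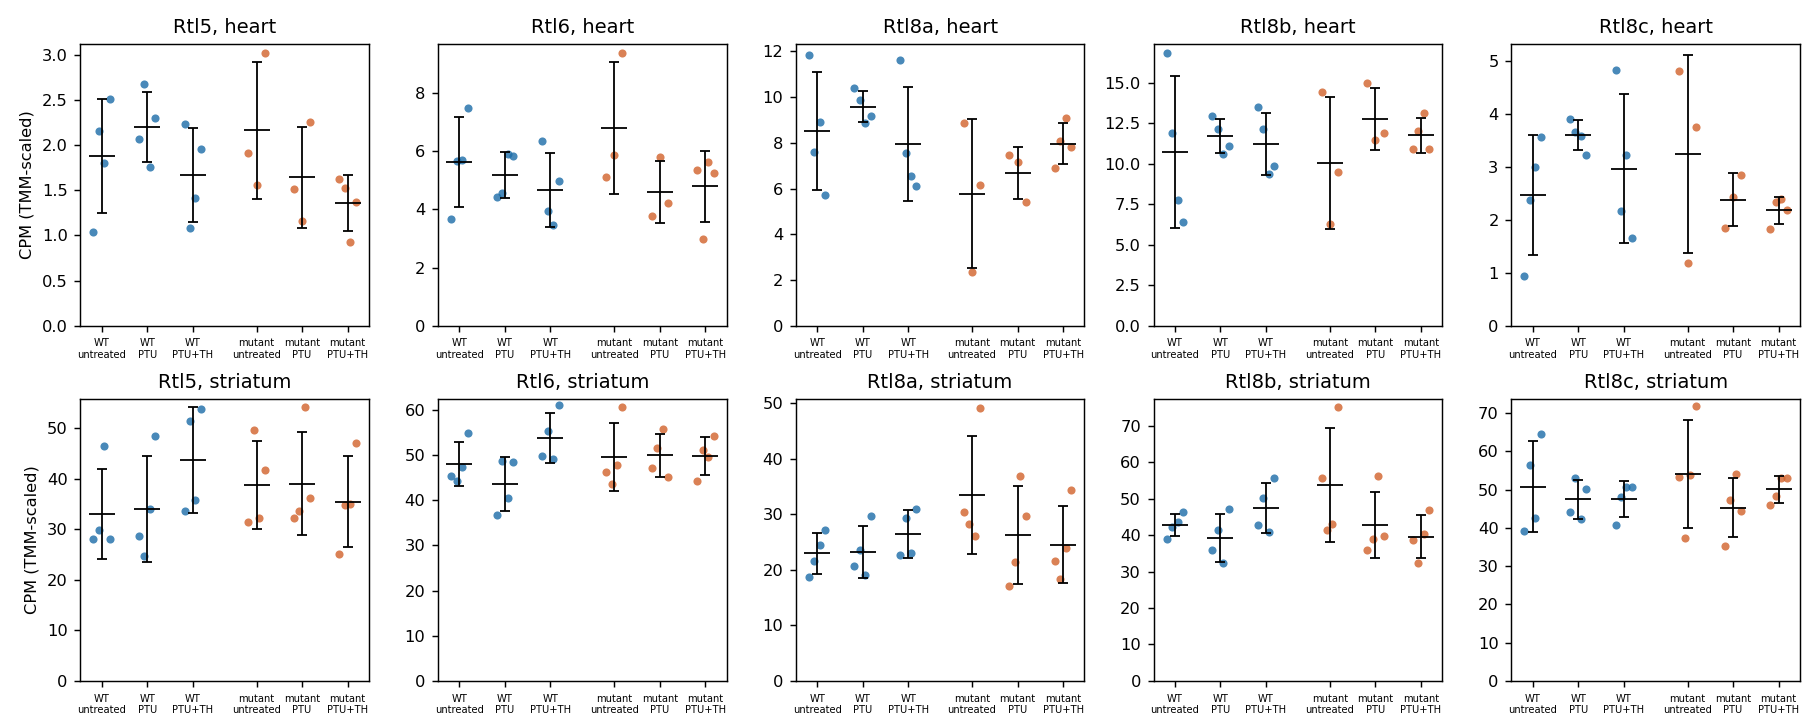
Level of Rtl5, Rtl6, Rtl8a, Rtl8b and Rtl8c in each heart library (upper row) and each striatum library (lower row), in CPM after TMM scaling within the tissue, by genotype and treatment; points are libraries, horizontal lines group means and bars 1 SD. The scales differ between panels, Rtl5 for example running from 0.922 to 3.02 CPM in heart and from 24.8 to 54.2 in striatum, and groups overlap in nearly all panels.

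Among the Rtl8 genes, whose proteins in human cells associate with UBQLN2, group means in heart ran from 5.78 to 9.58 CPM for Rtl8a, from 10.0 to 12.8 for Rtl8b and from 2.18 to 3.59 for Rtl8c. In striatum they ran from 23.0 to 33.5, from 39.2 to 53.8 and from 45.2 to 54.1 CPM. The highest Rtl8a mean in striatum was that of untreated mutant mice, 33.5 ± 10.6 CPM against 23.0 ± 3.67 in untreated WT mice (SD, n = 4 each). The ranges, 26.1 to 49.1 and 18.6 to 27.1 CPM, overlapped, and the log2 difference of 0.54 ± 0.231 did not pass in edgeR (adjusted p = 1.00). Rtl8b in mutant striata was lower with PTU+TH than untreated by a log2 difference of -0.44 ± 0.173, which did not pass either (adjusted p = 0.997 in edgeR). In heart, the response of Rtl8c to PTU differed between genotypes by -1.12 ± 0.535 on the log2 scale (mutant minus WT), again without passing (adjusted p = 0.306 in edgeR). It rested on means of 2.46 and 3.59 CPM in untreated and PTU WT hearts and of 3.24 and 2.38 CPM in mutant hearts.

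**Figure D3:**
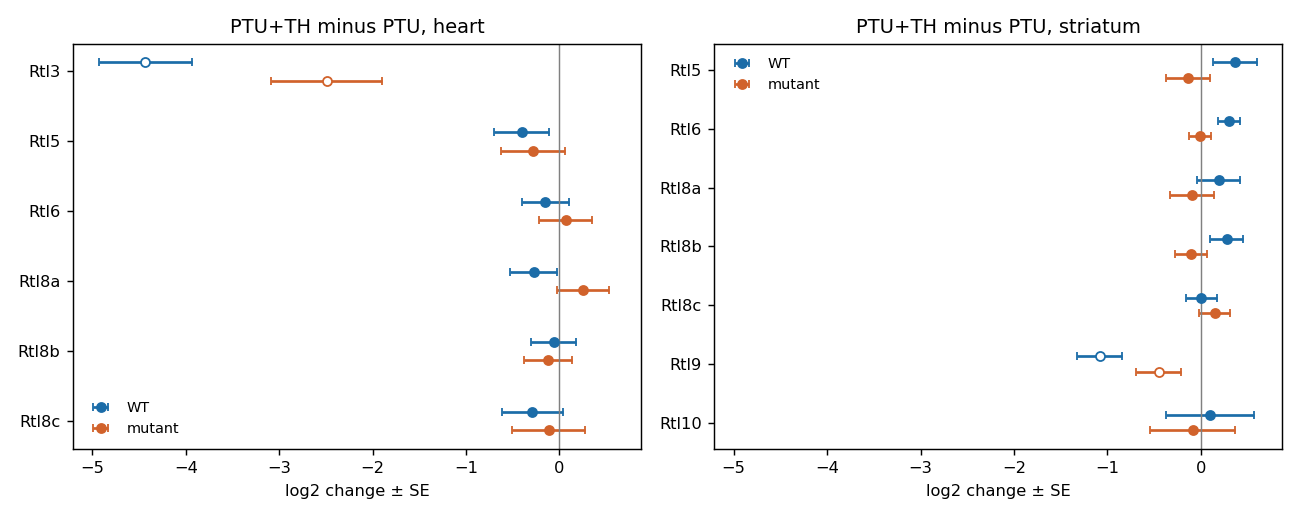
Fitted log2 difference between PTU+TH and PTU with its SE, in heart (left) and striatum (right), for WT and mutant mice. Open points mark Rtl3 in heart (-4.43 in WT and -2.49 in mutant) and Rtl9 in striatum (-1.08 and -0.45), which were chosen for this difference and not tested; of the filled points, 0 passed the test in edgeR and 0 in DESeq2.

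Rtl10 was near the floor of detection in both tissues. It had between 2 and 13 counts per striatal library, with group means from 0.536 to 0.822 CPM, and passed the filter there. In heart it had 90 counts over 22 libraries, between 0 and 12 in each and 0 in 2, and did not pass. Heart means were 0.247, 0.410 and 0.527 CPM in untreated, PTU and PTU+TH WT mice and 0.106, 0.233 and 0.178 CPM in mutant mice, with no test.

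Rtl5, Rtl6, Rtl8a, Rtl8b and Rtl8c, the 5 members that passed the low-count filter in each tissue alone, were higher in striatum than in heart. In a joint fit of all 46 libraries, untreated striatum was compared with untreated heart on levels in CPM scaled over both tissues. All 5 were called higher in striatum by edgeR, in WT and in mutant mice. Of all 17346 genes tested, 79.9% were called in WT (42.4% higher and 37.4% lower in striatum) and 75.3% in mutant mice (39.6% and 35.8%), so calls between tissues were common. Tissue and anything done separately for the hearts and the striata cannot be told apart. The labels do not say whether a heart and a striatum came from the same mouse. The joint fit took all libraries as independent, except where a replicate block is named. Rtl3, Rtl9 and Rtl10 entered the joint fit through the groups where they were high, so for them no test is given.

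Rtl5 and Rtl8c had the steepest rise towards striatum among members that passed the low-count filter in each tissue alone. Their heart counts were low, down to 4 for Rtl5 and 3 for Rtl8c in untreated mutant replicate 2. Rtl5 had a log2 difference of 3.30 ± 0.263 (SE) in WT (adjusted p = 4.64e-15 in edgeR) and 3.26 ± 0.316 in mutant mice (2.25e-12). Rtl8c had 3.51 ± 0.261 in WT (4.74e-16) and 3.08 ± 0.301 in mutant mice (2.69e-12). Rtl6 followed with 2.27 ± 0.193 and 2.05 ± 0.224 (adjusted p = 3.40e-14 and 6.34e-11 in edgeR). Rtl8b, at 1.20 ± 0.213 and 1.56 ± 0.246, was also higher in striatum (adjusted p = 2.60e-06 and 3.49e-07 in edgeR). For each of these 4 genes every untreated striatal library lay above every untreated heart library on the joint scale. Summed microglial and macrophage markers, scaled within each tissue, were between 155 and 229 CPM in striata and between 25.2 and 176 in hearts. The sums were not put on the joint scale, so they give no order between the tissues. Their part in the levels of Rtl5 and Rtl6 was not tested.

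Rtl8a, which shares its coding sequence with Rtl8b, had the smallest fitted difference of the 5 in WT mice. Its log2 difference was 0.63 ± 0.245 in WT (adjusted p = 0.0187 in edgeR) and 1.60 ± 0.292 in mutant mice (5.19e-06). The WT call was lost without replicate 4 of the untreated WT hearts, at 0.45 (adjusted p = 0.114), and without replicate 4 of the untreated WT striata, at 0.52 (0.0684). Whether the tissue difference of Rtl8a itself differs between genotypes was not tested.

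**Figure D4:**
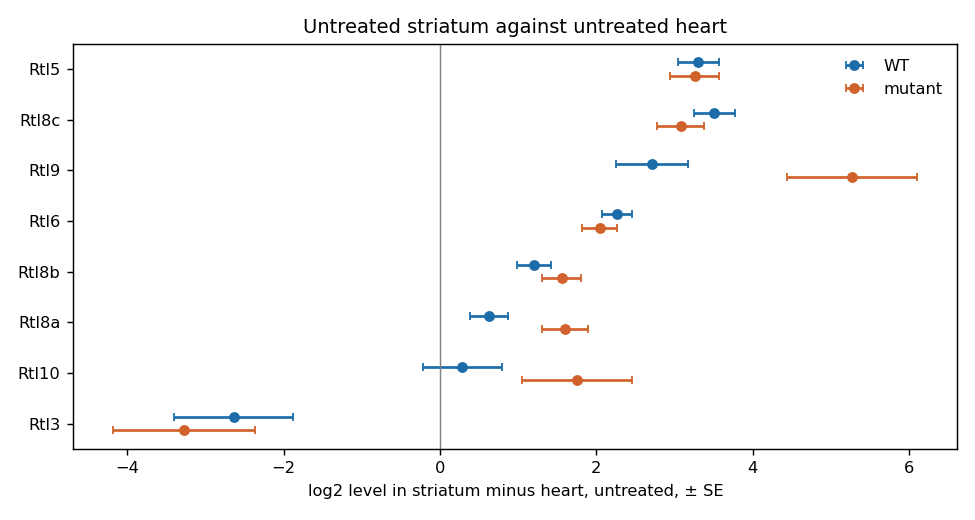
Fitted log2 difference between untreated striatum and untreated heart with its SE for the 8 members, in WT and mutant mice, from the joint fit of 46 libraries. Rtl3 lies below 0 and the others above it; the value of Rtl9 in mutant mice rests on 1 count in heart and that of Rtl3 on 4 counts (WT) and 3 counts (mutant) in striatum.

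The sparse members are better read as ratios of summed counts. Rtl3 had 18 counts in untreated WT hearts and 4 in untreated WT striata, a ratio of 6.81 after scaling, with an exact 95% interval from 2.24 to 27.7 that covers counting error only. In mutant mice it had 10 and 3 counts, a ratio of 11.8 (3.03 to 66.5). Of the 4 WT striatal counts 3 were in replicate 2, and without it the fitted log2 difference moved from -2.64 ± 0.760 to -3.88 (striatum minus heart). Rtl9 had 138 counts in untreated WT striata against 14 in hearts, a ratio of 6.52 (3.75 to 12.2), and 158 against 1 in mutant mice, a ratio of 44.8 (7.92 to 1780). The 1 count was in replicate 1 of the untreated mutant hearts. The striatal counts of both genotypes were spread over all libraries, whereas the hearts held few reads of this gene in any group.

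Rtl10 counts in untreated striata and hearts were 24 and 13 in WT mice, a ratio of 1.22 (0.597 to 2.61), and 37 and 3 in mutant mice, a ratio of 3.50 (1.11 to 17.7). The WT interval includes 1, and the mutant ratio rests on 3 counts in heart.

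Within the Rtl8 cluster the balance of the genes differed between tissues. The ratio of Rtl8c to Rtl8a counts lay between 0.0794 and 0.622 in the 22 hearts, with a median of 0.344, and between 1.33 and 2.63 in the 24 striata, with a median of 2.07. No heart overlapped any striatum, and the lowest heart ratio rested on 10 counts of Rtl8c. Rtl8c made up between 3.17 and 22.7% of the Rtl8 counts of a heart and between 35.0 and 48.8% of those of a striatum. The share of Rtl8a was 24.0 to 45.4% and 18.0 to 26.3%, and the median share of Rtl8b 52.8% and 36.3%. For reads that were counted, the uncertain split between Rtl8a and Rtl8b touches the ratio but not the share of Rtl8c among all 3 genes. Reads set aside as not unique, 23.1 to 35.9% of heart reads and 12.9 to 17.3% of striatal reads over all genes, could move both, and their part was not tested.

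**Figure D5:**
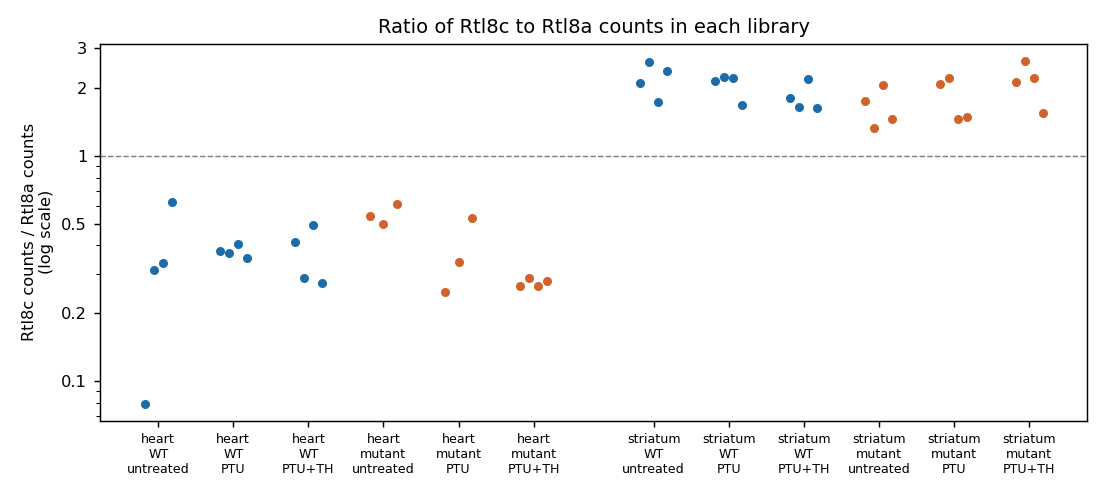
Ratio of Rtl8c to Rtl8a counts in each of the 46 libraries, on a log axis, by tissue, genotype and treatment. The hearts lie between 0.0794 and 0.622 and the striata between 1.33 and 2.63, on either side of the dashed line at a ratio of 1.

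Rtl8a and Rtl8b varied together between libraries, with r = 0.703 over 22 hearts and 0.900 over 24 striata, and 0.818 and 0.903 for deviations from the group means. They share most of their sequence, their library and its depth. Rtl8b and Rtl8c, by contrast, had r = -0.002 in heart. In striatum Rtl8b and Rtl8c had r = 0.639, and 0.703 for deviations from the group means. Varying together was thus not limited to Rtl8a and Rtl8b in that tissue. The gene closest to Rtl8a was Ciao2b in heart (r = 0.936) and Hcfc1r1 in striatum (0.953), and the gene closest to Rtl8b was Rpl30 (0.867) and Ndufb9 (0.907). For Rtl8c they were Eda (0.817) and Mapk8ip1 (0.903), for Rtl5 Zfp46 (0.771) and Ccdc28b (0.906), and for Rtl6 Slc25a44 (0.773) and Pja1 (0.885). Ugt8a was closest to Rtl10 in striatum (0.775).

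Per length, Rtl8a and Rtl8b stood above Rtl6 and Rtl5 in both tissues of untreated WT mice. The distance of Rtl8c from the others depended on the length taken for it, while its rank by mean in these mice did not. In untreated WT hearts, in CPM of the joint scale per kb of the RefSeq transcript span, Rtl8b stood at 11.3 ± 4.93, Rtl8a at 8.97 ± 2.70, Rtl8c at 2.73 ± 1.25, Rtl6 at 1.71 ± 0.475 and Rtl5 at 0.529 ± 0.179 (SD, n = 4). In untreated WT striata the order was Rtl8c at 32.0 ± 8.19, Rtl8b at 25.7 ± 2.30, Rtl8a at 13.8 ± 2.45, Rtl6 at 8.30 ± 1.02 and Rtl5 at 5.30 ± 1.37. On this length Rtl8b and Rtl8a in heart, Rtl8c and Rtl6 in heart, and Rtl8c and Rtl8b in striatum differed by less than their SDs together. GENCODE gives Rtl8c 401 exon bases against a RefSeq span of 1214, and per kb of GENCODE exon it stood at 8.26 ± 3.79 in heart, beside 11.7 ± 5.10 for Rtl8b and 1.71 ± 0.475 for Rtl6. In striatum it then stood at 97.0 ± 24.8, above Rtl8b at 26.6 ± 2.38 by more than the SDs. Of the stretches of 75 bases, 77.61% of those in Rtl8a and 75.13% of those in Rtl8b occur in the other gene. If reads there were set aside as not unique, values of Rtl8a and Rtl8b per kb would be too low beside Rtl8c. That was not tested, so the order of the 3 genes is uncertain. Per kb of GENCODE exon, Rtl10 stood at 0.384 ± 0.0886 in untreated WT hearts, Rtl3 at 0.171 ± 0.104 and Rtl9 at 0.0752 ± 0.0689.

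Relatives outside the 8 genes were taken as lists of the other sushi-ichi genes (4 genes), the PNMA family (10) and other genes captured from retroviruses or retrotransposons (6). In striatum 3, 9 and 3 of them passed the filter, and edgeR called 0 in any of the 11 comparisons, with 1, 10 and 1 tests at an unadjusted p below 0.05, while DESeq2 called 0. In heart 1, 1 and 3 passed. Peg10, the 1 sushi-ichi gene that passed there, was called in 0 comparisons, with 0 at an unadjusted p below 0.05, and 0 were called by DESeq2. Pnma8b fell in PTU+TH against untreated mutant hearts, by 1.29 ± 0.291 on the log2 scale (adjusted p = 0.00447 in edgeR). Arc, whose neuronal protein forms capsid-like particles, fell with PTU in WT hearts by 2.81 ± 0.378 (adjusted p = 5.96e-05 in edgeR), rose with TH by 3.40 ± 0.368 (9.86e-07), and fell with PTU in mutant hearts by 1.86 ± 0.412 (0.00949). Its direction was thus opposite to that of Rtl3 in the same hearts.

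Between tissues, relatives that passed the filter in each tissue alone are given here. Peg10 was higher in striatum, by 4.51 ± 0.274 on the log2 scale in WT and 4.37 ± 0.331 in mutant mice, and so was Pnma8b (5.08 ± 0.213 and 4.99 ± 0.250). Rtl4, which did not pass in heart, had 0 counts in all 22 hearts and between 0.852 and 2.58 CPM in striata. In the third list Arc was higher in striatum (5.39 ± 0.499 and 4.61 ± 0.569). Fv1, a restriction factor against murine leukaemia virus, was lower (-1.73 ± 0.314 and -1.72 ± 0.372). Nynrin was lower in mutant mice (-0.87 ± 0.278) and was not called in WT mice (-0.22). Whether its tissue difference differs between genotypes was not tested.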

How the data were processed

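RNA of 22 heart and 24 striatum libraries was prepared with the CORALL V2 kit from 1 ug of total RNA each, per the labels. Each deposited file holds the raw gene counts of 1 library, and its 5 lines that name no gene were left out of library sizes. Bowtie2, HTSeq and the mouse build GRCm39 are named, without versions, in the submitters' processing notes; nothing was given in the sources used here on strand setting, annotation release, trimming or molecular identifiers. From these counts, edgeR 4.0.16 under R 4.3.3 (limma 3.58.1) fitted each tissue with 1 coefficient per group, after filterByExpr with a minimum count of 10 and TMM scaling. Two-sided quasi-likelihood F tests compared the groups in 11 comparisons per tissue, and a joint fit of 12 groups compared the tissues. A gene was called when its p, adjusted by the Benjamini-Hochberg method over every gene tested in the comparison, was below 0.05. Levels are CPM after TMM with the SD between libraries, and changes are log2 differences with their SE. Likeness between genes used log2 CPM with a prior count of 2.

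Members, lists and named genes (the 8 members, every called gene of the lists, the neighbours and overlaps of members, the closest genes by Pearson's r, and Hr) were chosen with earlier results of these data known. No test is given for values of Rtl3 in heart and Rtl9 in striatum that the choice used, nor where a member passed the low-count filter through another group or tissue. Rtl10 in striatum is an exception, since its tests stayed in the count there, with no weight put on them. Library pairs within groups differed by more than sampling noise, with a chi-square of at least 6.15 per degree of freedom, so none was counted as a repeat. Alternatives were DESeq2 1.42.0, RLE factors, no low-count filter, a replicate block, the share of reads given to no gene as a covariate, the compared groups fitted alone, and each library left out in turn. Fits were checked on simulated counts. Exact 95% intervals and counts cover counting error only. The reference was GENCODE M21 and RefSeq on GRCm38, an older build than that of the files, so its coordinates go with its sequences only.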

Additional observations from a re-analysis of the deposited data

Results flagged for a closer look

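In 66 sets of 4 libraries, 1 per member and group, the library farthest from the others was examined by Dixon's criterion, which chance meets in about 1 of 20 sets, and 4 sets met it. Rtl3 in untreated WT hearts was 0.719 CPM in replicate 2, against 0.226 to 0.282 in the others. Rtl3 in PTU WT hearts was 3.52 CPM in replicate 4, against 5.62 to 5.96. Rtl6 in PTU+TH mutant hearts was 2.97 CPM in replicate 2, against 5.25 to 5.61. Rtl5 in untreated WT striata was 46.4 CPM in replicate 3, against 28.0 to 29.9.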

How the results depend on the processing

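Within tissues the number of members called was 0 in all 22 comparisons in all 331 values under the alternatives. With the replicate block it was also 0, and between tissues it called all 5 members that passed in both tissues, in either genotype. The numbers were not taken as pairs, since 23 of 51 correlations of same-numbered deviations in heart and 25 of 60 in striatum were above 0.1. Their medians were 0.079 and 0.072, against -0.016 and -0.034 for other numbers, and 11 of 22 and 10 of 24 libraries correlated best with their own number, a hint of pairing from the data and not from the design. Between tissues those 5 members were called under every alternative in mutant mice, and in WT mice under all but 2, untreated heart replicate 4 or untreated striatum replicate 4 left out, where Rtl8a was lost. The cause was not tested. Leaving out untreated mutant heart replicate 1 moved the mutant tissue difference of Rtl9 from 5.28 to 8.11, with 0 heart counts left, and that of Rtl10 from 1.76 to 2.48. Of 2323 alternative log2 differences of members, 125 changed sign, and none of these was called. The description of Rtl3 moved by more than its SE in 3 of them, PTU+TH against PTU in WT hearts without PTU+TH replicate 3, and mutant against WT PTU hearts without PTU mutant replicates 1 and 3 (-1.38 and -2.35). The 5 genes closest to Rtl3 kept 2 members under Spearman's rho and 3 without untreated mutant heart replicate 2, and those closest to Rtl9 kept 0 under Spearman's rho. Depth limits Rtl3 in striatum, Rtl9 in heart and Rtl10 in both tissues.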
